A study of Drosophila melanogaster with 2 samples.

Results

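Boundaries at which 2 short topologically associated domains (TADs) meet were examined in the Hi-C map of Kc167 cells, a cultured line derived from Drosophila melanogaster embryos. In Hi-C, fixed chromatin is cut and neighbouring ends are ligated, and every ligation product that is sequenced (a di-tag) counts as a contact of the joined positions. The labels name no treatment or genotype. The cells were measured in 2 replicates, which the submitters combined into 1 map of 34287983 di-tags, binned at 10 kb on release 5 (dm3) of the genome. The deposited HiCseg segmentation lists 1308 TADs, of which 1305 lie on the 5 large arms (2L, 2R, 3L, 3R and X). On these arms 1272 TADs start 1 bp after the previous one ends, and each such position counts as a boundary. At 189 of them (14.9%) both TADs span at most 50 kb, and these are called short boundaries here. They involve 301 TADs. At 682 boundaries 1 of the TADs is short and the other longer (mixed boundaries), and at 401 both exceed 50 kb (long boundaries).

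TADs are stretches of a chromosome within which loci contact each other more often than they contact loci beyond the border. In Drosophila, TAD borders are known to lie mostly in active, gene-dense chromatin with housekeeping genes, bound by insulator proteins such as BEAF-32, CP190 and Chromator, and long inactive regions are known to form the large TADs between them. A boundary is said to insulate when contacts that cross it are fewer than contacts that stay on one side. Both are taken relative to the mean of the arm at their own distance. The position of a boundary is known here to 1 bin of 10 kb, and genes or sequence were not placed on it.

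The boundaries were called by the submitters on this same map, and the members were chosen from the lengths of the called TADs. Contact values at the boundaries are therefore descriptions and carry no test. Since both replicates are in 1 map, no value has a replicate error. Counting error is given where it can be computed, and it does not include the spread between cultures. Differences between short, mixed and long boundaries were not tested. They are set beside the spread of single boundaries.

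Contacts across short boundaries were fewer, relative to the arm mean at their distance, than contacts within their sides in squares of 20, 30 and 50 kb. In a square of 20 kb, which takes 2 bins on each side, contacts across the boundary had a median observed over expected value of 0.773, where the expected value is the arm mean at the same distance (quartiles 0.655 and 0.930, 189 boundaries). Contacts within either side had a median of 1.47 (quartiles 1.28 and 1.86). In this square each side holds only the contact between its 2 neighbouring bins, whereas contacts across the boundary also include longer distances. On the log2 scale the median ratio of crossing over within-side contacts was -0.96, with quartiles at -1.17 and -0.65. At mixed boundaries the median ratio in the same square was -0.84, and at long boundaries it was -0.57 (quartiles -0.84 and -0.33, 399 boundaries).

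The other scales gave similar ratios. In the 30 kb square the median log2 ratio was -1.03 at short boundaries (quartiles -1.20 and -0.83, 187 boundaries) and -0.64 at long boundaries (quartiles -0.93 and -0.30, 400 boundaries). In the 50 kb square it was -0.99 at short boundaries (quartiles -1.18 and -0.75, 187 boundaries) and -0.61 at long boundaries (quartiles -0.97 and -0.28). The gap between the 2 medians was thus between -0.39 and -0.38 in the 3 squares. The quartile ranges overlapped between the classes in each square, so that a single boundary cannot be assigned to a class from its ratio.

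**Figure D1:**
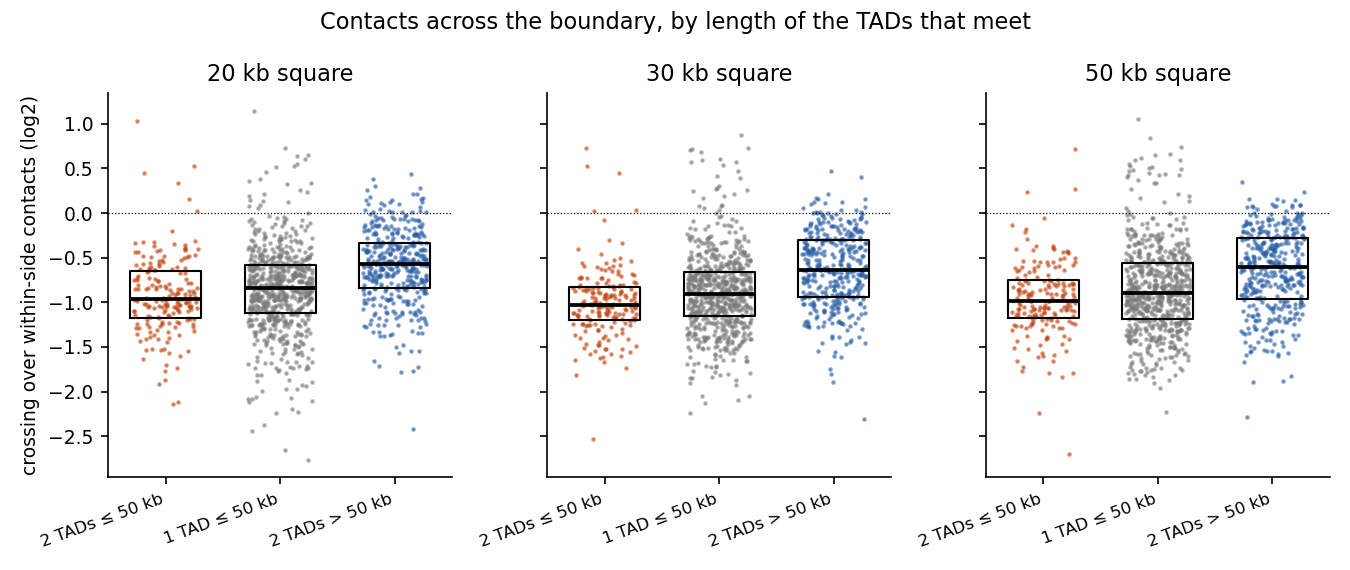
Crossing over within-side contacts as a log2 ratio (vertical axis) for each boundary between 2 TADs of at most 50 kb, 1 such TAD and a longer one, and 2 TADs over 50 kb, in squares of 20, 30 and 50 kb. Points are single boundaries, boxes run between the quartiles and thick lines are medians, which at the left of each panel lie at -0.96, -1.03 and -0.99.

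Nearly all short boundaries showed the depletion. In the 20 kb square 183 of 189 lay below 0, whereas 36.7% of all bin edges of the arms did. In the 30 kb square it was 182 of 187, against 43.3% of all bin edges. In the 50 kb square it was 184 of 187 (98.4%), against 48.6% of all bin edges. At long boundaries 380 of 401 (94.8%) lay below 0 in the 50 kb square. Ratios at or below -1 were found at 86 short boundaries in the 20 kb square (45.5%, against 4.77% of all bin edges), at 100 in the 30 kb square (53.5%, against 5.28% of all bin edges) and at 90 in the 50 kb square (48.1%, against 7.58% of all bin edges). At long boundaries 15.8%, 19.5% and 22.9% were that low in the 3 squares. Since the segmentation looks for such positions, these shares only describe how far the called boundaries stand out from the map.

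The number of di-tags was high enough to measure single short boundaries. The median short boundary had 1206 di-tags across it and 2795 within its sides in the 30 kb square, and the median counting error of its log2 ratio was 0.055. The SD between short boundaries was 0.39, which is larger than this error. The lowest crossing total was 68 di-tags, and the largest counting error was 0.38. A ratio under 0 in all 3 squares was found at 181 of the 187 short boundaries measured in all of them, against 31.2% of all bin edges. The lowest of the 3 ratios was that of the 20 kb square at 49 of these boundaries, that of the 30 kb square at 63 and that of the 50 kb square at 75, so that no single scale was the one of strongest depletion.

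The within side and the crossing side contributed differently at each scale. In the 20 kb square the within-side median was 1.47 at short boundaries and 1.00 at long boundaries, whereas the crossing medians were 0.773 and 0.660. Contacts across short boundaries thus had the higher median at this scale, and the lower ratio came with a higher within-side level. In the 30 kb square the crossing medians were close, at 0.677 at short and 0.648 at long boundaries, with within-side medians of 1.36 and 0.995. In the 50 kb square the order of the crossing medians was turned, with 0.587 at short and 0.679 at long boundaries, and the within-side medians were 1.14 and 1.02.

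The high within-side level was also seen on the short side of mixed boundaries. In the 20 kb square the side medians were 1.48 at short boundaries, 1.36 for the short TAD of mixed boundaries, 1.05 for the longer TAD of mixed boundaries and 0.988 at long boundaries. In the 50 kb square, which reaches past the end of most short TADs, these 4 medians were 1.11, 1.01, 1.11 and 1.01. When the square was replaced by the 2 TADs that meet, the median log2 ratio was -1.05 at short boundaries and -0.49 at long boundaries. Both sides of a short boundary were rarely equal, with a median difference of 0.31 on the log2 scale in the 30 kb square, and 0.23 at long boundaries.

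Short boundaries also differed among themselves in both terms of the ratio. When they were ranked by the ratio in the 30 kb square, the 47 lowest had a median crossing level of 0.581 and a median within-side level of 1.51. The 46 highest had a median crossing level of 0.842 and a within-side level of 1.28. The summed length of the 2 TADs had a median of 70 kb in the lowest and 80 kb in the highest group. The ranking itself fixes the direction of these differences as a pair.

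The ratio in the 20 kb square was lowest where the TADs were shortest, on few boundaries. The 4 boundaries whose longer TAD spans 20 kb had a median log2 ratio of -1.37 in the 20 kb square. Of these 4, 2 lie at an arm end, among them the lowest at -1.74, beside a TAD of under 20 kb. The median was -1.03 for the 28 with a longer TAD of 30 kb, -1.01 for the 57 with 40 kb and -0.90 for the 100 with 50 kb. The within-side medians of these 4 groups in that square were 2.16, 1.68, 1.45 and 1.42. For a TAD of 20 kb the side of this square is the whole TAD, so its level is not independent of the call. At the limit of the definition, the 100 boundaries just inside, whose longer TAD spans 50 kb, had a median of -0.98 in the 30 kb square. The 101 boundaries just outside, with a TAD of 60 kb beside a short one, had a median of -0.93, and the quartile ranges of both overlapped (-1.16 to -0.81 inside, -1.22 to -0.76 outside). In the 20 kb square both medians were -0.90, and in the 50 kb square they were -0.91 inside and -0.96 outside, so that the order differed between squares.

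The 5 arms gave similar levels. Short boundaries numbered 34 on 2L, 45 on 2R, 29 on 3L, 35 on 3R and 46 on X. They made up 18.9% of the boundaries of X and 18.4% of those of 2R, but 11.4% on 3L, 12.0% on 3R and 14.3% on 2L. The median log2 ratio in the 30 kb square was -1.10 on 2L, -0.92 on 2R, -1.06 on 3L, -1.01 on 3R and -1.04 on X. At long boundaries it lay between -0.72 on 2R and -0.48 on 2L, so that the smallest gap between both classes was on 2R.

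The 3 short boundaries with the lowest ratios in the 30 kb square lie on X and 2L. At position 12580001 of X, between a pair of 30 kb TADs, the log2 ratio in the 30 kb square was -2.53 ± 0.09 (counting error), with crossing contacts at 0.306 and within-side contacts at 1.77 times the arm mean. The sides were unequal there, with 1.01 on the left and 2.53 on the right. At position 6590001 of X, between TADs of 40 and 50 kb, it was -1.81 ± 0.06, with sides of 1.43 and 1.64. At position 8030001 of 2L, between TADs of 30 and 50 kb, it was -1.74 ± 0.07, and the left side had the high level of 2.83. All 3 stayed below -1.5 in the 20 and 50 kb squares, but the ranking differed there. The lowest ratio of the 50 kb square was -2.69 at position 10030001 of 2R, where the 30 kb square gave -1.06. Its left side rose from 1.00 in the 30 kb square to 3.94 in the 50 kb square, which reaches beyond the left TAD of 30 kb. The right side was 0.838 and the crossing level 0.369 in the 50 kb square. In the 20 kb square positions 18480001 of 2R (-2.12), 4240001 of 3L (-1.91) and 21310001 of 3L (-1.87) were lower than the boundaries at 6590001 of X and 8030001 of 2L. These 4 were picked after their values were seen.

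The 3 short boundaries with the highest ratios had more contacts across than within. They lie at positions 19690001 and 19710001 of X, with ratios of 0.72 ± 0.07 and 0.45 ± 0.07 in the 30 kb square, and at position 20250001 of 2R, with 0.53 ± 0.07. The pair on X flanks a single TAD of 20 kb. The right bin at the first of the pair holds 919 di-tags and the left bin at the position on 2R holds 984, which is 0.180 and 0.172 of the arm median. In all, 6 short boundaries had a ratio of at least 0 in any square. Besides these 3 they lie at position 2120001 of 2L and at positions 4040001 and 14070001 of X, where the ratios in the 20 kb square were 1.03, 0.16 and 0.02. Of the 6, 5 had a bin with under 0.25 of the arm median total within 30 kb, as had 24 of all 189. The part of such thin bins in these ratios was not tested. Without such bins the median log2 ratio in the 30 kb square was -1.02 (185 boundaries).

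The depletion across short boundaries extended over long contact distances. At each distance the contacts that straddle the boundary were averaged and divided by the arm mean at that distance. At 10 kb, between the bins that touch at the boundary, the median was 0.971 at short boundaries and 0.760 at long boundaries, where the median of all bin edges was 0.867. The median of bins that touch at a short boundary was thus above that of all touching bins. The quartile ranges overlapped, with 0.806 to 1.19 at short boundaries and 0.670 to 1.16 at all bin edges. At 20 kb the medians were 0.740 at short and 0.639 at long boundaries, and at 30 kb they were 0.650 and 0.637.

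From 40 kb up to 1000 kb the median at short boundaries was the lower one. At 40 kb it was 0.622 at short and 0.648 at long boundaries. At 50 kb the median was 0.553 at short boundaries, 0.658 at long boundaries and 0.935 at all bin edges. At 100 kb it was 0.411 at short, 0.691 at long boundaries and 0.903 at all bin edges. It was lowest at 150 kb for short boundaries, with 0.392 (quartiles 0.294 and 0.560), against 0.701 at long boundaries (quartiles 0.511 and 0.945) and 0.852 at all bin edges. At this distance 95.6% of short boundaries, 78.5% of long boundaries and 60.1% of all bin edges lay under 1.

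At larger distances the depletion became shallower. The median at short boundaries was 0.475 at 300 kb, 0.580 at 500 kb, 0.751 at 800 kb and 0.777 at 1000 kb. At long boundaries it was 0.744, 0.706, 0.832 and 0.831, and over all bin edges 0.807, 0.754, 0.860 and 0.868. Up to 500 kb the median did not reach the arm mean at short, mixed or long boundaries. At short boundaries it was first at 1 or above at 1690 kb, and at mixed and long boundaries this was not reached up to 2000 kb. The value of 1690 kb depends on the processing: on the raw di-tags, after iterative correction, without thin bins and with the arm median in place of the mean, the median at short boundaries was already above 1 at 10 kb, and it was below 1 at every distance over 10 kb and up to 500 kb. The median of all bin edges lies under 1 at each of these distances as well, so it is the nearer comparison. Mixed boundaries had their lowest median, 0.552, at 80 kb and long boundaries theirs, 0.637, at 30 kb.

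**Figure D2:**
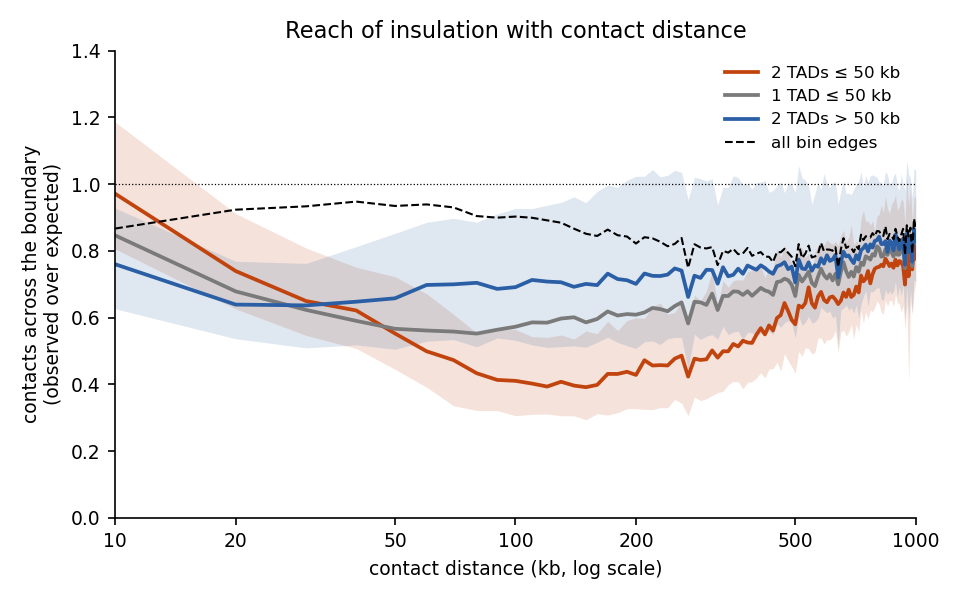
Contacts that straddle the boundary as observed over expected (vertical axis) against contact distance in kb (log scale). Lines are medians over boundaries, shaded bands run between the quartiles for the 2 outer classes, and the dashed line is the median of all bin edges. The line of short boundaries starts at 0.971 at 10 kb and reaches its lowest value, 0.392, at 150 kb.

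Both TADs at a short boundary together span at most 100 kb, so every contact across it of 100 kb or more also crosses at least 1 further boundary. Bin pairs 50 kb apart had a mean observed over expected value of 0.659 when they crossed a single boundary that was a short one (475 pairs) and of 0.665 when they crossed a single boundary of another class (4474 pairs). The pairs that crossed none had a mean of 1.31 (5952 pairs). When they crossed 2 boundaries, the mean was 0.558 with a short boundary among them (354 pairs) and 0.650 without one (326 pairs). At 100 kb the pairs that crossed 2 boundaries had means of 0.505 with a short boundary (892 pairs) and 0.632 without (2321 pairs). The spread of single pairs was wide, with SDs of 0.38 and 0.43, and the difference between the means was not tested. At 150 kb with 3 or more boundaries crossed, the means were 0.463 and 0.482 (1337 and 866 pairs). The pairs share bins and are not independent.

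The deepest depletion lay beyond the short TADs. In the region from 50 to 100 kb away on both sides, the contacts across the boundary had a median of 0.353 at short boundaries (quartiles 0.254 and 0.514, 183 boundaries). In the same region the median was 0.693 at long boundaries (quartiles 0.484 and 1.00) and 0.794 at all bin edges. Within 50 kb on both sides it was 0.585 at short boundaries, 0.679 at long boundaries and 0.935 at all bin edges. By the definition, contacts of the region from 50 to 100 kb also cross the outer ends of both short TADs. At long boundaries they need not do so. By TADs, the median was 1.37 within the TADs at a short boundary and 0.687 between them. It was 0.513 between either of them and the TAD beyond the other, and 0.441 between the TADs outside both (177 boundaries). The same 4 medians were 1.22, 0.878, 0.806 and 0.750 at long boundaries.

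**Figure D3:**
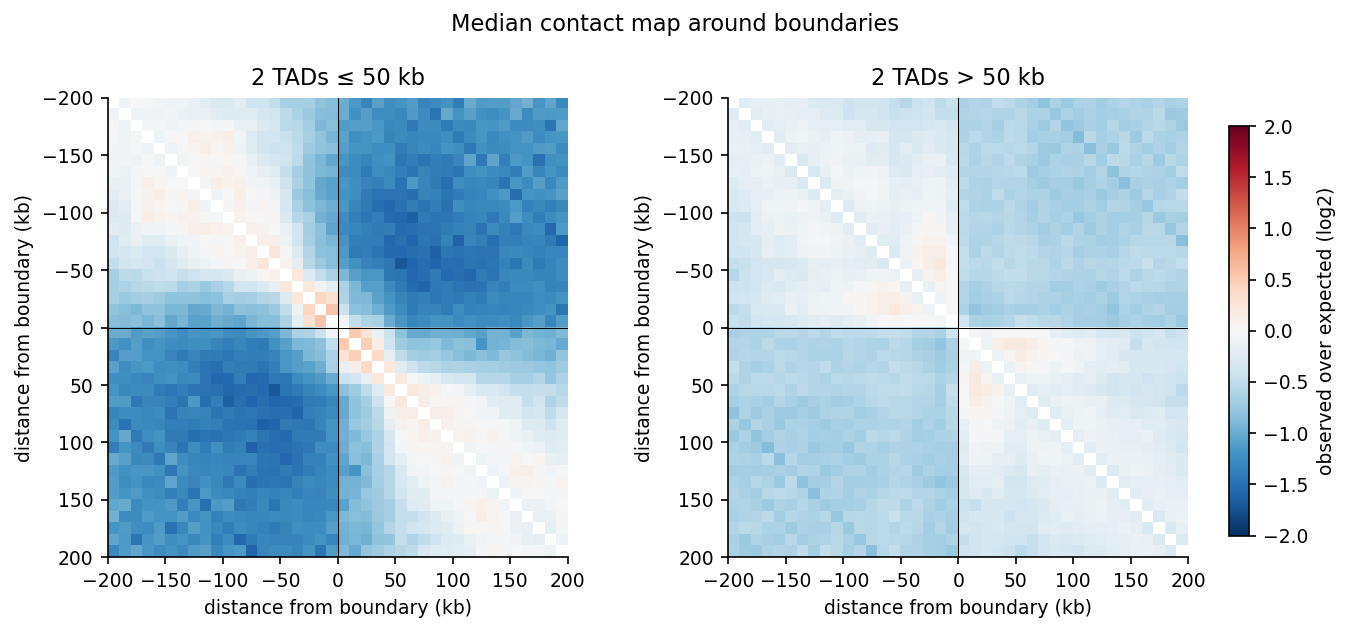
Median contact map over 181 short boundaries (left) and 399 long boundaries (right) from 200 kb before to 200 kb after the boundary, with observed over expected contacts as colour (log2) and the boundary at the crossing lines. At short boundaries the lowest values lie off the diagonal around and beyond 50 kb on both sides, and the median over the region from 50 to 100 kb is 0.353 against 0.693 at long boundaries. At short boundaries the contacts of this region also cross the outer ends of both TADs.

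Along the arm, the ratio was also measured with the square moved away from the boundary. For the 20 kb square the median over both directions was -0.96 at short boundaries, -0.19 at an offset of 10 kb, -0.17 at 20 kb, -0.30 at 30 kb, -0.30 at 40 kb and -0.27 at 50 kb. It was 0.06 at 60 kb. The second dip from 30 to 50 kb falls where the other ends of the short TADs lie, which the definition places within 50 kb. The median of all bin edges, 0.18, was first reached at an offset of 120 kb. At long boundaries the medians were -0.57 at the boundary, -0.04 at 10 kb and 0.16 at 20 kb, and the level of all bin edges was reached at 30 kb.

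With the 50 kb square the short boundaries formed a broad trough. The median was -0.99 at the boundary, -0.72 at 10 kb, -0.64 at 30 kb, -0.58 at 50 kb and -0.17 at 80 kb, and over both directions it did not reach the median of all bin edges, 0.02, within 200 kb. It came close, with 0 first reached at 140 kb and -0.01 at 200 kb, and in single directions it was slightly above that level at 4 offsets of 110 kb or more. At mixed boundaries this level was reached at 80 kb. At long boundaries it was -0.61 at the boundary and 0.09 at 30 kb. In the 20 kb square the boundary itself was the lowest of 5 neighbouring bin edges at 121 of 185 short boundaries (65.4%) and at 279 of 399 long boundaries (69.9%), where 17% of all bin edges are. In the 50 kb square this held for 77 of 184 short boundaries (41.8%) and 287 of 400 long boundaries (71.8%), against 13.2% of all bin edges. The wider square covers several short TADs at once, and a short boundary was then often not the lowest point.

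**Figure D4:**
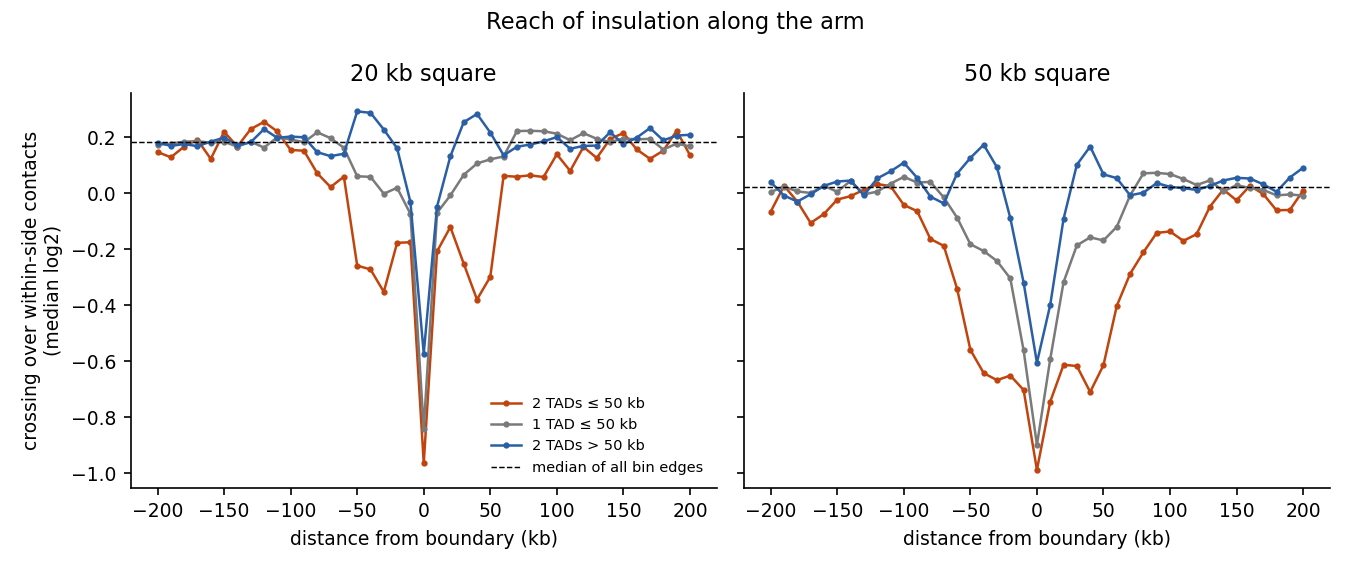
Median of the crossing over within-side log2 ratio (vertical axis) with a 20 kb square (left) or a 50 kb square (right) moved up to 200 kb to either side of the boundary. Lines with points are the 3 classes of boundaries and the dashed line is the median of all bin edges. Short boundaries show a narrow minimum of -0.96 with side dips from 30 to 50 kb on the left, and a broad trough around -0.99 on the right.

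Short boundaries lay singly or in runs along the arms. The 189 boundaries form 112 runs of successive short TADs, of which 66 hold a single short boundary, 25 hold 2, 13 hold 3, 7 hold 4 and 1 holds 6. Thus 123 of the 189 (65.1%) lie in a run with at least 1 other. This share was not compared with that of a random order of TADs, and short TADs were followed by short ones in a lower share of cases than TADs in general. The runs span 11.3 Mb, which is 9.56% of the length covered by TADs. Boundaries in runs and single ones had nearly the same insulation, with medians of -1.04 (123 boundaries) and -1.02 (66 boundaries) in the 30 kb square. In the 50 kb square they were -1.03 and -0.91.

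A short TAD was followed directly by another short TAD in 189 of 534 cases (35.4%, 95% Wilson interval 31.5 to 39.5%). A longer TAD was followed by a short one in 337 of 738 cases (45.7%, 95% Wilson interval 42.1 to 49.3%), and any TAD in 526 of 1272 cases (41.4%). The first 2 intervals do not overlap, but neighbouring TADs come from 1 segmentation and the difference was not tested. The TADs that flank the runs had a median length of 100 kb (quartiles 70 and 170 kb), as had all TADs over 50 kb (quartiles 70 and 160 kb).

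The median distance between a short boundary and the next one was 235 kb over 184 neighbouring pairs, with quartiles at 40 and 848 kb. With short TADs limited to 40 kb it was 740 kb, on 89 short boundaries. The main median joins separate kinds of spacing. In 77 pairs both boundaries bound the same short TAD, and there the definition allows at most 50 kb (median 40 kb). In the 107 other pairs the distance ranged from 140 to 4720 kb with a median of 740 kb. More than 1000 kb separated 40 of the 184 pairs (21.7%). Neighbouring long boundaries lay at a median of 190 kb, with quartiles at 80 and 393 kb.

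**Figure D5:**
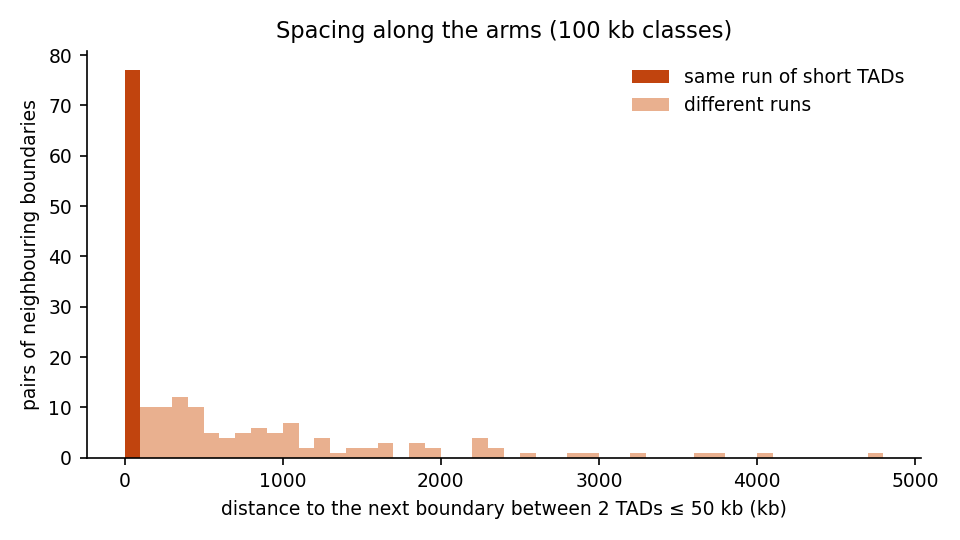
Number of pairs of neighbouring short boundaries (vertical axis) by their distance along the arm in classes of 100 kb. The first bar holds the 77 pairs in the same run of short TADs, and the pairs in different runs extend from 140 to 4720 kb.

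The longest run lies on 2R from 19730001 to 20000000, with 7 TADs of 39 kb on average and 6 short boundaries. Their log2 ratios in the 30 kb square were -1.01 at 19750001, -0.95 at 19780001, -1.11 at 19830001, -0.68 at 19860001, -1.31 at 19910001 and -1.13 at 19950001. Each of the 6 was thus well below 0, with the weakest in the middle of the run. The longest runs of the other arms hold 4 short boundaries each. They lie on 2L from 2100001 to 2240000, on 3L from 9350001 to 9500000, on 3R from 19750001 to 19930000 and on X from 19590001 to 19800000, taking the run longer in kb where runs tie. The median ratio was -0.92 in the run on 2L, -0.87 on 3L, -1.13 on 3R and -0.27 on X. The run on X holds the pair of boundaries with a thin bin between them, and its other boundaries had ratios of -0.999 at 19640001 and -1.18 at 19760001.

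Other stretches held no short boundary. The widest such stretch on 2L extends over 4720 kb from 12000001 to 16720000 and holds 34 other boundaries. On 3L it extends over 4050 kb from 11060001 to 15110000, on 2R over 3750 kb from 5990001 to 9740000, on 3R over 3220 kb from 1450001 to 4670000 and on X over 2240 kb from 9470001 to 11710000. Of 57 windows of 2 Mb, 6 held none, the median window held 3, and the fullest, at 18000001 to 20000000 of 2R, held 10.

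The bins that meet at short boundaries had ordinary totals. Their median was 5444 di-tags, 0.97 times the arm median (378 bins), against 6060 at long boundaries (802 bins) and 5558 over all filled bins. Of their di-tags, a median of 13.6% joined another arm or chromosome (quartiles 12.4 and 15.2%), against 12.2% at long boundaries (quartiles 10.8 and 13.6%) and 11.7% over all filled bins (quartiles 10.1 and 13.6%). Contacts between arms were not used to find TADs, but the share also depends on contacts within the arm, on which the TADs were called. A lower total of contacts within the arm raises the share without more contacts between arms. The ratio of contacts at 10 to 50 kb to contacts at 60 to 500 kb had a median of 1.69 in the bins at short boundaries (quartiles 1.38 and 2.18). It was 1.01 at long boundaries (quartiles 0.789 and 1.30) and 0.997 over all filled bins, so that the lower quartile at short boundaries exceeded the upper quartile at long ones. The definition bears on this gap. At short boundaries each bin lies in a TAD of at most 50 kb, so its contacts at 60 to 500 kb all leave that TAD. At long boundaries such contacts can stay inside where the TAD is long enough.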

How the data were processed

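The authors mapped the Hi-C read pairs with HiCUP on release 5 (dm3), and the submitters' processing notes name Bowtie2 2.2.6. They pooled the 2 replicates. Their deposited tables hold the di-tag count of each pair of 10 kb bins and, for the same pairs, a signal normalised by the authors with GOTHiC. The deposited segment positions were found with HiCseg on the normalised map, without the weakest borders. No sample was left out, and 0 columns belong to other samples.

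Expected contacts were the mean normalised signal of the arm at equal distance over bins with di-tags, empty pairs as 0. A square was measured where at least 60% of its pairs had filled bins. All 189 short boundaries were measured in the 20 kb square and 187 in the others, since 2 lie too close to an arm end. Counting error was propagated from the raw di-tags. Shares carry 95% Wilson intervals. The 95% intervals of medians were taken from ranks over the boundaries. Neighbouring boundaries can share TADs and bins, so these intervals describe the spread of boundaries that are not independent. The interval of the ratio of means at 50 kb holds counting error alone. The depth was 34287983 di-tags over 11835 filled bins of the arms.

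Boundaries were named by rank of the ratio in the 30 kb square, and runs and gaps by length. The members and lists were chosen with earlier results of these data known. The alternatives were raw di-tags, iterative correction (100 rounds), other expected values, length limits and exclusions. The square statistic was tested on simulated maps. No genome of release 5 was used here, so gene starts and motifs were not analysed. Computation used Python 3.11.15, numpy 2.4.6, pandas 2.3.3, scipy 1.17.1 and matplotlib 3.10.9.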

Additional observations from a re-analysis of the deposited data

How the results depend on the processing

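The median ratios of short boundaries in the 20, 30 and 50 kb squares and the share below 0 kept their direction under all alternatives run. Over all results, 55 of 70 alternative values stayed within the 95% interval of the main value, within 10 kb for a reach or within 1.5 times for a count. For the gap between the medians of short and long boundaries, the margin was instead joined from the 95% intervals of both medians. All alternative values of this gap stayed within it and are among the 55. None of these intervals includes a replicate error. Leaving out pairs of neighbouring bins gave -0.94 in the 30 kb square and -0.79 in the 50 kb square, and could not be run in the 20 kb square. With short TADs limited to 40 kb the 20 kb square gave -1.02, and there were 89 short boundaries with a median spacing of 740 kb and 23.2% of short TADs followed by a short one. With a limit of 60 kb there were 296 and 44.9%. The contact distance at which the median first reached the arm mean, 1690 kb in the main setting (searched up to 2000 kb), was 10 kb on the raw di-tags, after iterative correction, without thin bins and with the arm median in place of the mean, since the value there, 0.971 in the main setting, became 1.03, 1.20, 1.02 and 1.12. From 20 kb to 500 kb it was not reached under any of these. At 150 kb the median was between 0.392 and 0.553 at short boundaries and between 0.701 and 0.950 at long boundaries over these settings. The mean of pairs 50 kb apart across 1 short boundary over that of pairs across none was 0.503, and 0.586 on the raw di-tags, 0.635 after iterative correction and 0.517 without thin bins. The cause was not tested. The settings of the class comparison, the values at 150 kb and the omission of single arms were chosen after seeing the data. No paired analysis was possible because both replicates were combined before deposition. Depth limits the thinnest squares, and maps of each replicate were not analysed here.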

Other observations

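Contacts between different short boundaries were also measured, between the pairs of bins that meet at each. For boundaries 100 to under 200 kb apart, the median was 0.556 times the arm mean between short boundaries (26 pairs, quartiles 0.461 and 0.742) and 0.785 between long boundaries (144 pairs, quartiles 0.501 and 1.26). From 200 to under 500 kb the medians were 0.706 (109 pairs) and 0.684 (426 pairs). From 500 to under 1000 kb they were 0.917 between short boundaries (150 pairs, quartiles 0.646 and 1.38), 0.791 between a short and a long boundary (599 pairs) and 0.722 between long boundaries (700 pairs, quartiles 0.489 and 1.05). The order of the medians between short and long boundaries thus turned with distance. The definition bears on the nearest pairs. Short boundaries at least 100 kb apart never bound the same TAD, whereas long boundaries at that distance can. Bin pairs 150 kb apart had a mean of 1.03 across 1 boundary of any class and 0.471 across 3 or more. The quartile ranges overlapped at each distance, the pairs share boundaries and no test was made.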
